A study of Mus musculus with 8 samples.

Results

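The effector cytokine genes of lymphocytes were described by their DNA methylation in B cells and naive T cells from mouse spleen. Members were 9 genes fixed by name (Ifng, Il2, Il17a, Il17f, Il21, Il10, Tnf, Lta and Ltb) out of 21624 protein-coding genes with a measured locus on the autosomes and X. A locus was the gene body with 10 kb to either side (GENCODE M21, GRCm38), and CpGs with 5 or more reads in all 4 files were used. The loci held 1772 such CpGs and overlapped 182 windows of 1 kb with 3 or more of these CpGs, each counted once, since the loci of Tnf, Lta and Ltb overlap on chromosome 17.

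The series held 8 whole-genome bisulfite sequencing samples from C57BL/6J mice of 6 to 8 weeks of age, in 4 groups of 2: B cells of females and of males, and T cells of females and of males. B cells were CD43- resting cells, and T cells were CD4+ CD62L+ cells sorted as CD62Lhi, CD44lo and CD25-; cells were pooled over animals and no treatment is named. Both samples of a group point to the same file. The sources used here do not state whether both were combined in it, and the number in its name is that of 1 sample of the group, so the values may rest on 4 of the 8 samples. Each group therefore gave 1 measurement, and the contrast of B and T cells was seen 1 time in females and 1 time in males. Bisulfite converts unmethylated cytosine, and the percentage of unconverted reads was taken as the methylation level, without distinction between 5-methylcytosine and 5-hydroxymethylcytosine. In pooled cells, a level between the extremes cannot be told apart from a mix of cells with methylated and unmethylated copies.

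Effector cytokines are secreted by lymphocytes after activation, and most of their genes are silent in resting cells. Ifng encodes interferon gamma, the defining cytokine of T helper 1 and natural killer cells. Il2 encodes a T cell growth factor, Il17a and Il17f the cytokines of T helper 17 cells, Il21 a cytokine of follicular helper T cells that acts on B cells, and Il10 an anti-inflammatory cytokine that both T and B cells can make. Tnf, Lta and Ltb encode tumour necrosis factor and both lymphotoxin chains, which neighbour each other in the major histocompatibility complex and are used by lymphocytes to shape lymphoid tissue. Methylation of CpGs at promoters and enhancers generally accompanies a silent state of the gene, and loss of methylation often marks regulatory sequence in use or poised for use.

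The sequences upstream of the gene start are shown for Ifng, whose promoter differed most between B and T cells, for Il2, which had a called window at its start, and for Il17a and Lta, which had the highest and lowest promoter levels of the 9 genes. They are RefSeq sequences of GRCm38.p6, 250 bases before the RefSeq start, written 5′ to 3′ on the strand of the gene, with CpGs in capitals. RefSeq upstream sequences were matched for 8 of the 9 genes, and Il10 had no entry. They lie at chr10:118440796-118441045 on the plus strand (Ifng), chr3:37125955-37126204 on the minus strand (Il2), chr1:20730655-20730904 on the plus strand (Il17a) and chr17:35205352-35205601 on the minus strand (Lta).
Ifng: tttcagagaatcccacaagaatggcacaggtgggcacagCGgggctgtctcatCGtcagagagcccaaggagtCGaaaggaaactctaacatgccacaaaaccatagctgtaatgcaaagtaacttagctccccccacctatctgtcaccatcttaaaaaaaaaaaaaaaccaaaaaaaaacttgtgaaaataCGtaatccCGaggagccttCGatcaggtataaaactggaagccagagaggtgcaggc
Il2: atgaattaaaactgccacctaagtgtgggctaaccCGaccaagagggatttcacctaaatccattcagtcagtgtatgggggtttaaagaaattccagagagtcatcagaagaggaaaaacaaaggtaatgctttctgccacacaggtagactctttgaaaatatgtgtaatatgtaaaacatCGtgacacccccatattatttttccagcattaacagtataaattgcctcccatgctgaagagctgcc
Il17a: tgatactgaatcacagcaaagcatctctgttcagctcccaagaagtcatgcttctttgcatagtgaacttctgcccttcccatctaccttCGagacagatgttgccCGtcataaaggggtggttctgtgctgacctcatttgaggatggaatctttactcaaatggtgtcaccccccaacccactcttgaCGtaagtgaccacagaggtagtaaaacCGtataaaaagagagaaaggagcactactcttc
Lta: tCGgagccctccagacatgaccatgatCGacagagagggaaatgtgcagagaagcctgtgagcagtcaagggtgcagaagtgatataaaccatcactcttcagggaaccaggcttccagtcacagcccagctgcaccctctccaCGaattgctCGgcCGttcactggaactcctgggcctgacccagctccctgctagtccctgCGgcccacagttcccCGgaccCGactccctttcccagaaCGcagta

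Stretches inside called windows away from the start are shown for Il10 (upstream, chr1:131018586-131018797), Ltb (upstream, chr17:35192295-35192382), Ifng (in the gene, chr10:118441999-118442214) and Il21 (intron, chr3:37226377-37226572), because their CpGs carried most of the difference of each window. They are written 5′ to 3′ on the strand of the gene (minus for Il21, plus for the others), read from the GRCm38 genome. Capitals mark the CpGs at which both B values and both T values lay on opposite sides of a gap of 20 points or more.
Il10 upstream: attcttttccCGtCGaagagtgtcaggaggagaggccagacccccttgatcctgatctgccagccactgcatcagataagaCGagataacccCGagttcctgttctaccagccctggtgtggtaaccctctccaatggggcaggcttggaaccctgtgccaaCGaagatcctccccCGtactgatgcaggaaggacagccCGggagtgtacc
Ltb upstream: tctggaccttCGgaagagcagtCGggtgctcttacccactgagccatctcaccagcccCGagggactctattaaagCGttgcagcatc
Ifng in the gene: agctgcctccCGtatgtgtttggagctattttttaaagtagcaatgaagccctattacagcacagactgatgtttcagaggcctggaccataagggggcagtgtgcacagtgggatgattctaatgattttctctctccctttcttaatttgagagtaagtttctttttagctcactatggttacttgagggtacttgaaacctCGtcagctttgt
Il21 intron: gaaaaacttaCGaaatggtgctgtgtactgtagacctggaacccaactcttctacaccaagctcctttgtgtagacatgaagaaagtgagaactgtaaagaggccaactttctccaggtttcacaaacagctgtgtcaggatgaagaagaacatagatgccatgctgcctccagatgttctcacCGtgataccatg

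Upstream sequences of the members held few to moderate numbers of CpGs. The 250 bases held 6 CpGs in Ifng, 2 in Il2, 4 in Il17a, 4 in Il17f, 5 in Il21, 10 in Tnf, 9 in Lta and 6 in Ltb, against a median of 6 over 32851 RefSeq upstream sequences. The letters TATAAA, the core of a TATA box, occurred on either strand in 6 of the 8 members (all but Il21 and Ltb), against 12.4% of all upstream sequences. In Ifng, Il2, Il17a, Il17f and Tnf the match began at bases -31 to -29 from the RefSeq start, and in Lta at base -167. The letters TGACG, the core of the cyclic AMP response element that holds a CpG, occurred in Ifng, Il17a and Il17f, against 17.8% of all. GGAAA, the core bound by NFAT proteins, occurred in 7 of the 8 members, with Il17a the exception, against 55.6% of all. The match of TGACG in Ifng began at base -197, counted from the gene start, where the CpG had levels of 50% and 62.5% in the female and male B files and 0% in both T files. A match of letters is a description of the sequence and not evidence of a bound site.

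The files held 278275973 to 339923001 reads over autosomal CpGs, with a mean of 14.6 to 17.7 reads per CpG. As a check of the labels, 7 of 8 B cell marker promoters were called less methylated in B cells (Cr2 was the exception) and 9 of 10 T cell marker promoters were called less methylated in T cells (Cd28 was the exception); promoters and windows were called where they passed an adjusted p of 0.05 and differed by at least 20 percentage points in the model described with the next result. None of 7 myeloid and none of 6 natural killer cell marker promoters was called in that quasi-binomial model. A call needed a difference of 20 points between B and T, so it could not show a small or shared admixture of other cells. Both CD8 genes were called less methylated in the T files, although CD8a was among the antigens used to remove other cells. The Cd8b1 promoter had levels of 90.0% and 89.7% in the female and male B files and 40.6% and 38.5% in the female and male T files.

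Over whole loci, B and T cells had close levels in all 9 genes, and the genes fell into 2 sets by level. The reads of each locus were fitted by a quasi-binomial model on cell type and sex, with the spread squeezed over all loci, and p-values were adjusted over all 21624 loci. Called loci, which passed an adjusted p of 0.05 and differed by at least 5 points, made up 0.513% of all loci and none of the 9 members. At an unadjusted p under 0.05, 1 of the 9 member loci passed this model, 3 passed limma on log2 ratios and 2 passed Fisher's exact test in both sexes. The shares of all loci at this unadjusted threshold are not given here, so these counts are not read as an excess. None was called by limma or by Fisher's exact test.

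The Ifng locus (chr10:118431046-118455892) had levels of 91.7% and 92.6% in the female and male B files and of 89.7% and 89.8% in the female and male T files. Its difference of 2.39 points (B minus T, mean of both sexes) had an adjusted p of 0.33. The Il2 locus (chr3:37110523-37135959) lay between 86.2% and 88.1% in the 4 files, and the Il21 locus (chr3:37212759-37242636) between 85.9% and 89.1%. In Il17a (chr1:20720905-20744496) the files ranged from 82.4% to 86.3%, and in Il17f (chr1:20767146-20800617) from 88.6% to 88.9%. Il10 (chr1:131009845-131034974) was lower, at 75.4% to 77.4%. The Tnf, Lta and Ltb loci (chr17:35184439-35215351 together) were far lower, with ranges of 31.4% to 32.8%, 34.6% to 36.0% and 30.5% to 32.3%. Their mean levels over the files stood at the 1.77, 2.35 and 1.66 percentiles of all loci, while Ifng stood at the 97.0 percentile. The median of the B minus T differences over the 9 loci was 1.22 points, against 0.44 over all loci, while the medians of their sizes without sign were close, 1.22 and 1.14 points.

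**Figure D1:**
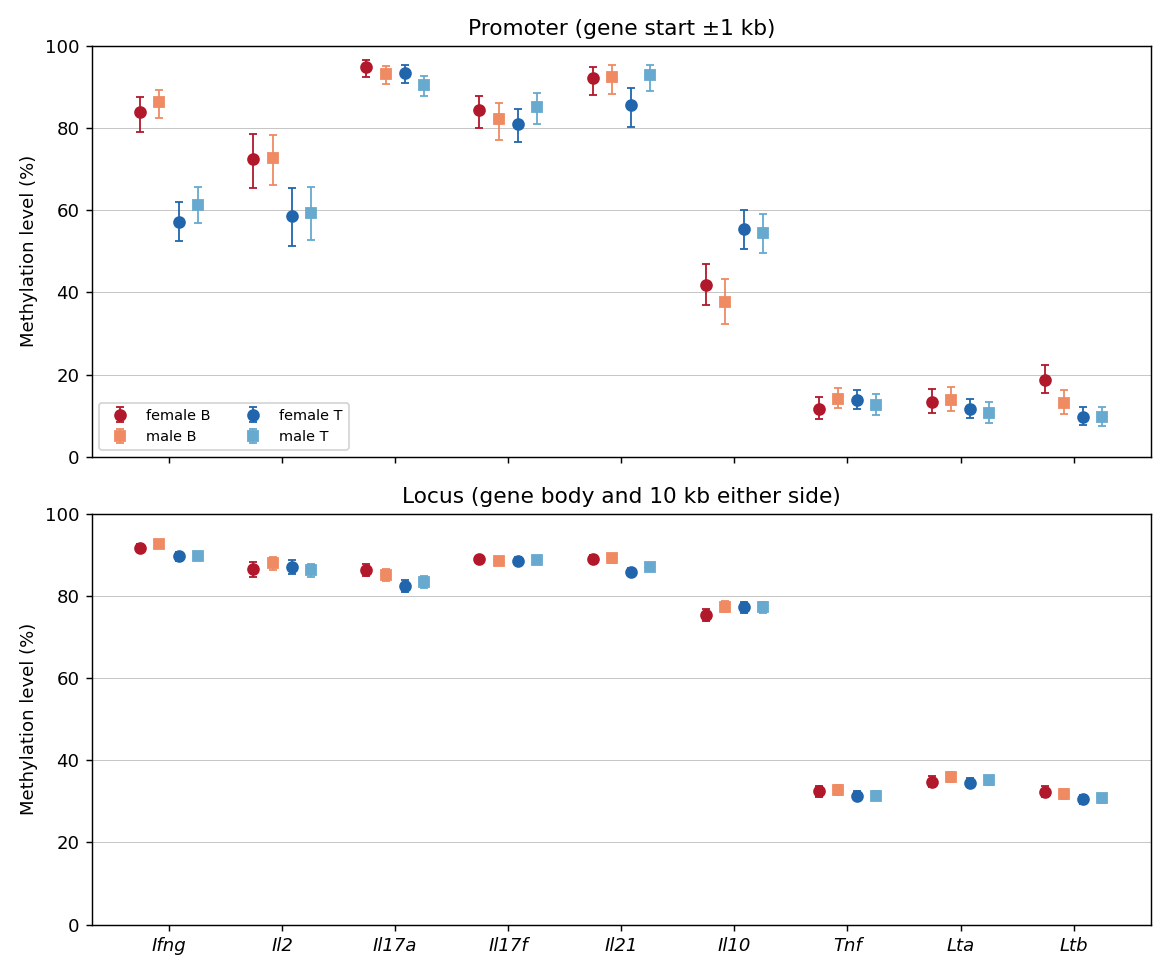
Methylation level in percent (vertical axis) of the 9 cytokine genes (horizontal axis) at the promoter, gene start with 1 kb to either side (top), and over the locus, gene body with 10 kb to either side (bottom). Points are the 4 files (1 per group). Bars are 95% Wilson intervals, which cover counting error only and take each CpG of a read as independent. B and T points stand well apart at the Ifng promoter, 83.8% and 86.3% against 57.2% and 61.4%. They lie close together over every locus.

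At promoters, taken as 1 kb to either side of the GENCODE start, Ifng was the only member called, with less methylation in T cells. Over all 21082 promoters tested, 0.915% were called. The Ifng promoter had 26 CpGs and levels of 83.8% and 86.3% in the female and male B files and of 57.2% and 61.4% in the female and male T files. Both B values lay above both T values. The difference was 25.7 points with an adjusted p of 0.00146 over all promoters. Over the alternative settings described below it ranged from 23.7 to 48.3 points. When 1 file was left out and sex was dropped from the model, the difference stayed between 23.7 and 27.8 points. The call was lost whichever file was left out. Whether the missing file or the changed model was behind this was not tested. The 3 promoters with levels most like those of Ifng, by Euclidean distance over the 4 files, were Olfr1507, an olfactory receptor gene (6.53 points), Zg16 (7.35 points) and Ly6g5b (7.36 points).

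Il10 went the other way. Its promoter had levels of 41.8% and 37.7% in the female and male B files and of 55.4% and 54.4% in the female and male T files. The B and T values did not overlap, and the difference of -15.2 points had an adjusted p of 0.057, short of both thresholds. Taken as 500 bases to either side of the start, the same promoter differed by -23.5 points with an adjusted p of 0.00802 and was called. The share of all promoters called at that width is not given here. The Il2 promoter was higher in B cells, with 72.5% and 72.7% in the female and male B files and 58.5% and 59.4% in the female and male T files, but its difference of 13.7 points had an adjusted p of 0.199.

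The remaining promoters differed by at most 6.31 points between the cell types with all 4 files. Il17a and Il21 were highly methylated throughout, from 90.6% to 94.9% in Il17a and from 85.7% to 92.8% in Il21. The Il17f promoter ranged from 80.9% to 85.1%. Low levels were found at Tnf (11.7% to 14.1%), Lta (10.6% to 13.8%) and Ltb (9.58% to 18.7%). The Ltb promoter, at 18.7% and 13.1% in the female and male B files against 9.65% and 9.58% in the T files, differed by 6.31 points with an adjusted p of 0.164. It differed by 3.52 points without female B cells and by 9.11 points without male B cells. The median level of the 9 promoters was 65.8%, against 14.6% over all promoters. The median difference was 2.51 points against 0.15, and the median size without sign was 3.06 points against 1.18. The member promoters held 13 to 38 CpGs, against a median of 61 over all promoters. A comparison matched for CpG number is not given here. Over the marker promoters of the check above, median levels ran from 45.6% (T cells) to 79.2% (natural killer cells).

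The GENCODE start of Il17f lies several kb upstream of the RefSeq start, so the promoter above does not cover the latter. Around the RefSeq start, with 1 kb to either side, 19 CpGs had levels of 81.8% and 78.5% in the female and male B files and 75.5% and 79.3% in the female and male T files; this start was added after the values had been seen. A run of 3 CpGs just upstream of it had 49.2% and 33.3% in the B files and 25.0% in both T files.

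Of the 182 windows of 1 kb that overlapped the loci, 11 (6.04%) were called between B and T cells, against 2.08% of the 2018320 windows of the genome. Of the 168 windows wholly inside a locus, 10 (5.95%) were called; the remaining called window, at the edge of the Il2 locus, owed its difference to CpGs outside that locus. Of these, 6 were more methylated in B cells (1.16% of all windows were called in this direction) and 5 were less methylated in B cells (0.913% of all). Every locus except that of Il17f had a called window. By a further 2 methods the number was smaller. Fisher's exact test in each sex called 8 (4.40%, against 1.75% of all windows), and limma on log2 ratios called 3 (1.65%, against 1.02%). Those kept by limma were the windows upstream of Ifng and of Ltb and the edge window of Il2. The edge window, as said above, owed its difference to CpGs outside the locus. With a spread estimated from all windows alike, none was called in the members and none in the genome. In that fit 45 member windows passed an unadjusted p under 0.05. The share of all windows that did so is not given here, so the count is not read as an excess.

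**Figure D2:**
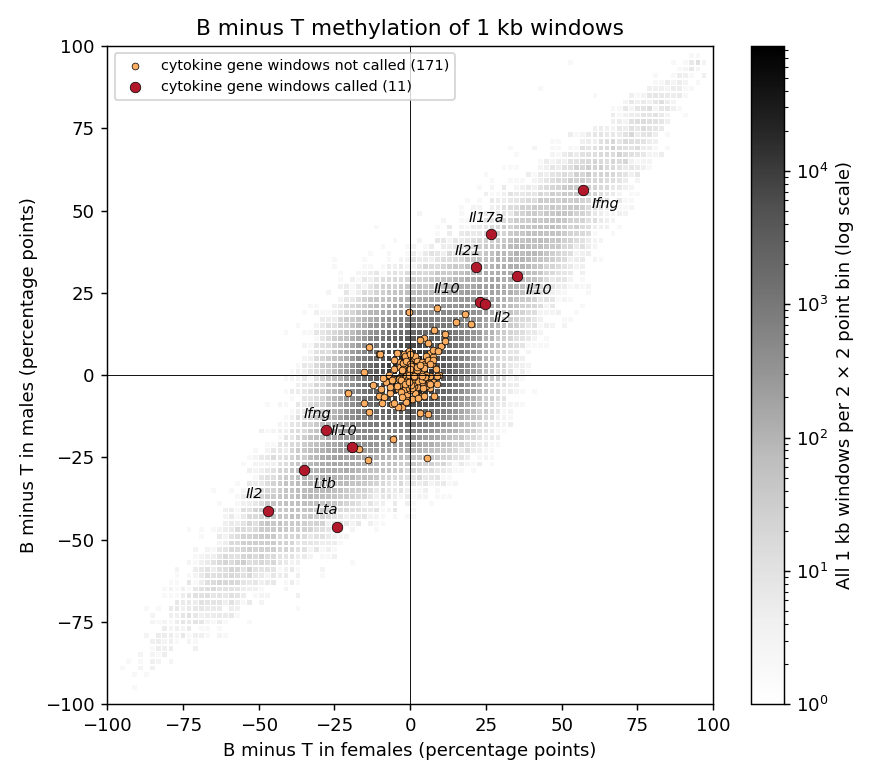
B minus T difference of 1 kb windows in percentage points, in females (horizontal axis) and in males (vertical axis). Grey squares count all windows of the genome on a log scale, orange points are the 171 cytokine gene windows not called and red points are the 11 called, labelled by the nearest cytokine gene; the Ifng window before the gene start lies farthest out, with a mean difference of 56.6 points.

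The largest difference of any member window lay directly upstream of Ifng. The window at chr10:118440001-118441000, -1045 to -46 bases from the gene start and in no annotated gene, had 71.4% (95% Wilson interval 61.4 to 79.7) in female B cells and 70.4% (60.7 to 78.5) in male B cells. T cells had 14.4% (9.60 to 20.99) in females and 14.3% (9.63 to 20.7) in males. The difference of 56.6 points had an adjusted p of 5.53e-27. Such intervals cover counting error only, and the p rests on an average spread over windows, since no group had a second file.

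Read CpG by CpG, the low stretch in T cells was bounded by methylated CpGs. The CpG at -1024 had 100% in both B files and 87.5% and 85.0% in the female and male T files. From -381 to -38, all 8 neighbouring CpGs were under 50% in both T files, and together they had 4.90% and 5.10% in the female and male T files against 67.7% and 70.7% in the female and male B files. The CpG at -49 had 92.3% and 75.0% in the B files and 3.23% and 0% in the T files. The CpG at 12, within the gene, was back at 80.0% and 76.9% in the female and male T files. The 6 CpGs of the sequence printed for Ifng averaged 74.1% and 71.5% in the female and male B files and 4.71% and 6.11% in the T files.

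Inside the Ifng gene the direction turned. The window at chr10:118442001-118443000, 955 to 1954 bases past the start, overlapped coding sequence of Ifng and a noncoding exon of Gm49751. It had 66.2% and 72.4% in the female and male B files and 94.1% and 89.2% in the female and male T files, a difference of -22.3 points with an adjusted p of 9.43e-05. The call was lost without female B cells (-19.2 points), without female T cells (-19.9 points), with 10 or more reads required in all 4 files (-19.6 points) and by Fisher's exact test in each sex (adjusted p 0.089), and it was kept in 5 of 12 alternatives. The difference came from the CpGs at 963 and 1157 bases, of which the former had 5 and 9 reads in the female B and T files. At 1157 the B files had 5.00% and 6.67% and the T files 80.0% and 75.0%, and both CpGs stand in capitals in the sequence printed above. A further group of CpGs with lower values in T cells lay 7851 to 8028 bases past the start, downstream of the gene. The window at chr10:118449001-118450000, which holds 2 of these 3 CpGs, differed by 18.5 points, under the threshold of 20.

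**Figure D3:**
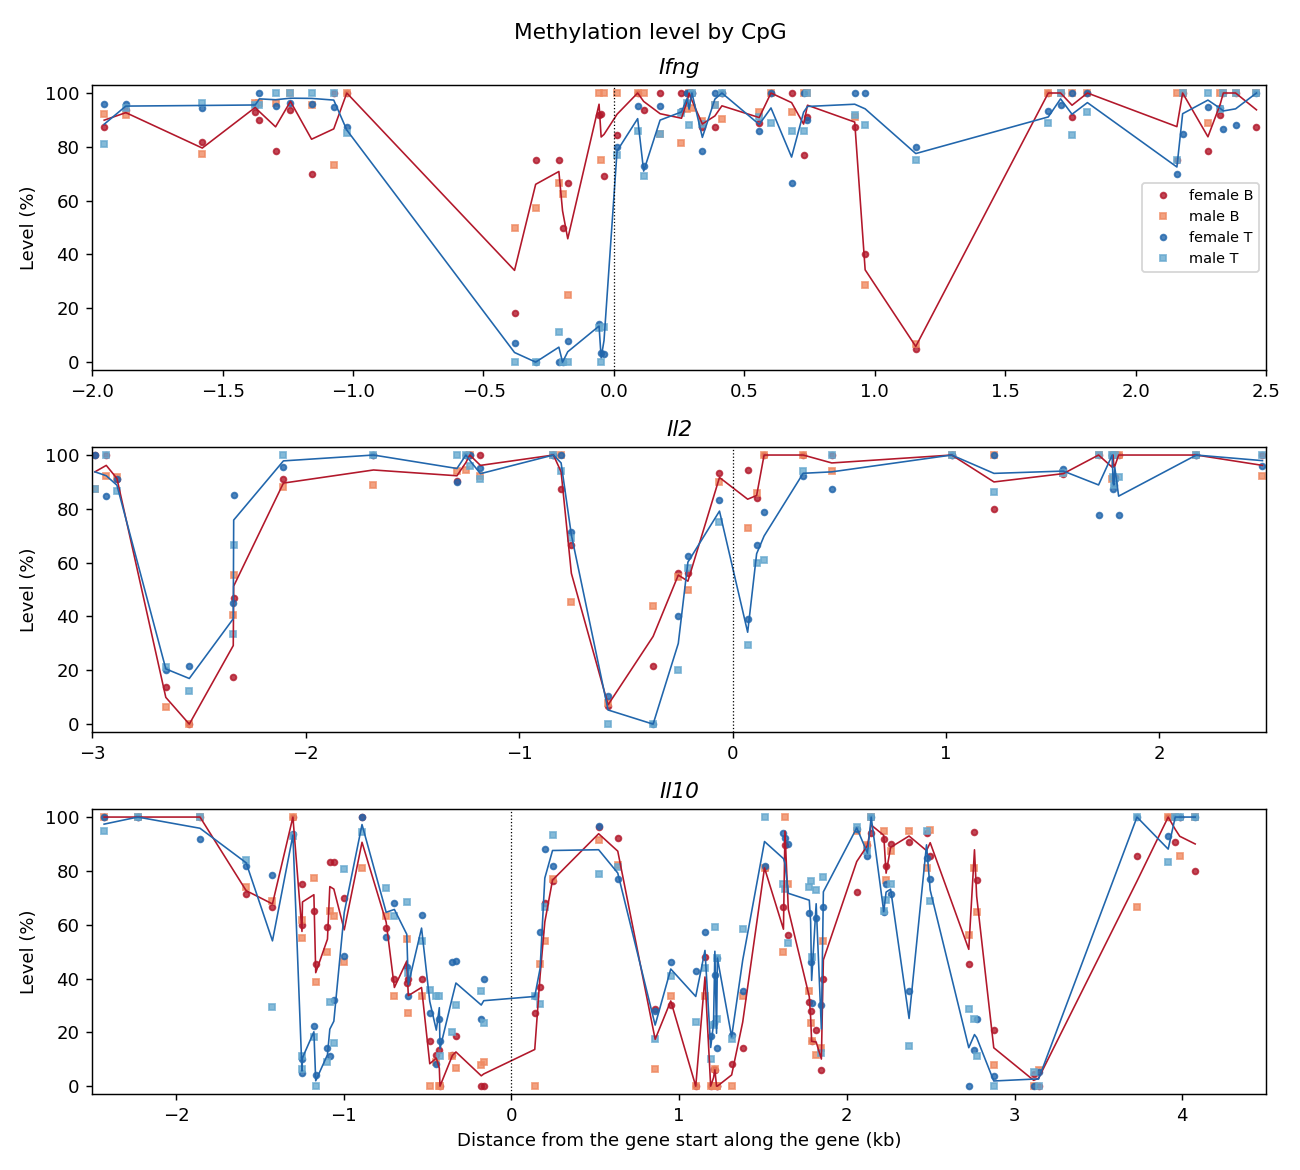
Methylation level in percent of each CpG (vertical axis) against its distance from the gene start in kb (horizontal axis, dotted line at the start) for Ifng, Il2 and Il10. Points are the 4 files (red shades B, blue shades T) and lines join the mean of both files of a cell type; T cells are near 0 just before the Ifng start, where the window had 14.4% and 14.3%, and the order of the cell types changes several times along Il10.

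Il10 had 3 called windows, more than any other member, with alternating direction. The window at chr1:131018001-131019000, -1844 to -845 bases from the start and intergenic, had 71.3% and 63.9% in the female and male B files and 36.1% and 33.9% in the female and male T files. It differed by 32.6 points with an adjusted p of 4.36e-17. All 7 CpGs from -1249 to -1059 were separated between the cell types, and together they had 67.5% and 59.2% in the B files and 14.9% and 13.6% in the T files. These CpGs are the capitals of the sequence printed for Il10.

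Nearer to the start the B files were lower. In the adjoining window at chr1:131019001-131020000, which holds the start, levels were 23.3% and 20.3% in the female and male B files and 40.2% and 42.8% in the female and male T files. Its difference of -19.7 points fell just short of the size threshold, with an adjusted p of 9.25e-06. Within the gene, the window at chr1:131021001-131022000 had 38.6% and 38.3% in the B files and 57.9% and 60.2% in the female and male T files, a difference of -20.6 points with an adjusted p of 1.33e-09. Without male T cells it differed by -19.4 points and was not called. The CpG at 1228 bases had 0% in both B files and 47.6% in both T files.

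The next window along the gene, chr1:131022001-131023000, turned again. It had 57.4% and 62.0% in the female and male B files and 34.3% and 39.9% in the female and male T files, a difference of 22.6 points with an adjusted p of 1.57e-06. Without female T cells the difference was 19.8 points and the call was lost, and with 10 or more reads required in all 4 files it was 14.8 points. Both windows overlapped coding sequence of Il10. Over the whole Il10 locus, with 233 CpGs, the difference was -0.85 points (-1.84 in females and 0.13 in males).

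Around Il2 the levels fell in 2 stretches upstream of the start, in both cell types. The CpGs from -583 to -254 had 28.9% and 39.2% in the female and male B files and 15.4% and 8.33% in the female and male T files, and 3 CpGs from -2655 to -2339 had 10.9% and 20.7% in the B files and 30.6% and 22.6% in the T files. The window at chr3:37125001-37126000, -41 to 958 bases from the start, overlapped UTR and coding sequence of Il2. It had 94.2% and 89.3% in the female and male B files and 69.6% and 67.7% in the female and male T files, a difference of 23.1 points with an adjusted p of 0.000146. The CpG at 71 bases differed most, with 94.4% and 72.7% in the B files and 38.9% and 29.4% in the T files. The CpGs of this window lay 71 to 465 bases past the start, outside the sequence printed for Il2. The 2 CpGs of that sequence averaged 74.8% and 70.0% in the female and male B files. They averaged 72.9% and 66.4% in the female and male T files.

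A second called window counted for Il2 lay at its outer edge, at chr3:37110001-37111000 in an intron of the neighbouring gene Adad1. Its levels were 50% and 55.4% in the female and male B files and 97.1% and 96.7% in the female and male T files (difference -44.2 points, adjusted p 2.09e-11). The CpGs that carried this difference, at 15702 and 15673 bases past the Il2 start, lay outside the locus as defined. Of its 4 CpGs, the 1 inside the locus had 100% in all 4 files.

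Il21 was lower in T cells inside its gene. Over its 37 intronic CpGs the levels were 85.3% in both B files and 69.9% and 69.7% in the female and male T files, while its exons had 90.9% to 96.2%. The called window at chr3:37226001-37227000, in an intron, had 40.9% and 41.3% in the female and male B files and 19.05% and 8.54% in the female and male T files. The difference of 27.3 points had an adjusted p of 0.000118, and without male T cells it was 22.0 points with an adjusted p of 0.0684. Fisher's exact test in each sex did not call it (adjusted p 0.0815). Its CpGs at 6485 and 6488 bases were close to 0 in every file, at most 7.69%. Those at 6249 and 6075, in capitals above, differed: the CpG at 6249 had 55.6% and 66.7% in the B files and 7.69% in both T files. Of the 13 separated CpGs in the Il21 locus, 12 were higher in B cells. The exception, at -1032, had 4.55% and 15% in the female and male B files and 50% and 41.7% in the female and male T files.

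Along Il17a, 6 of 163 CpGs (3.68%) were separated, all with higher B values, against the 1.31% of all CpGs in this direction. Il17a had no run of 3 CpGs under 50% in either cell type. Its called window at chr1:20740001-20741000, intergenic and 9096 to 10095 bases past the start, had 70.7% and 82.1% in the female and male B files and 44.2% and 39.3% in the female and male T files, a difference of 34.7 points with an adjusted p of 9.15e-07. Fisher's exact test in each sex did not call it (adjusted p 0.065). At 9761 bases the B files had 42.9% and 66.7% and the T files 0% and 4.55%.

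Il17f had no called window, and 1 of its 353 CpGs was separated between the cell types. Its largest window difference, at chr1:20796001-20797000, was -9.86 points with an adjusted p of 0.563. That window did not separate the cell types: it had 85.7% and 62.7% in the female and male B files and 80.2% and 88.0% in the female and male T files.

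**Figure D4:**
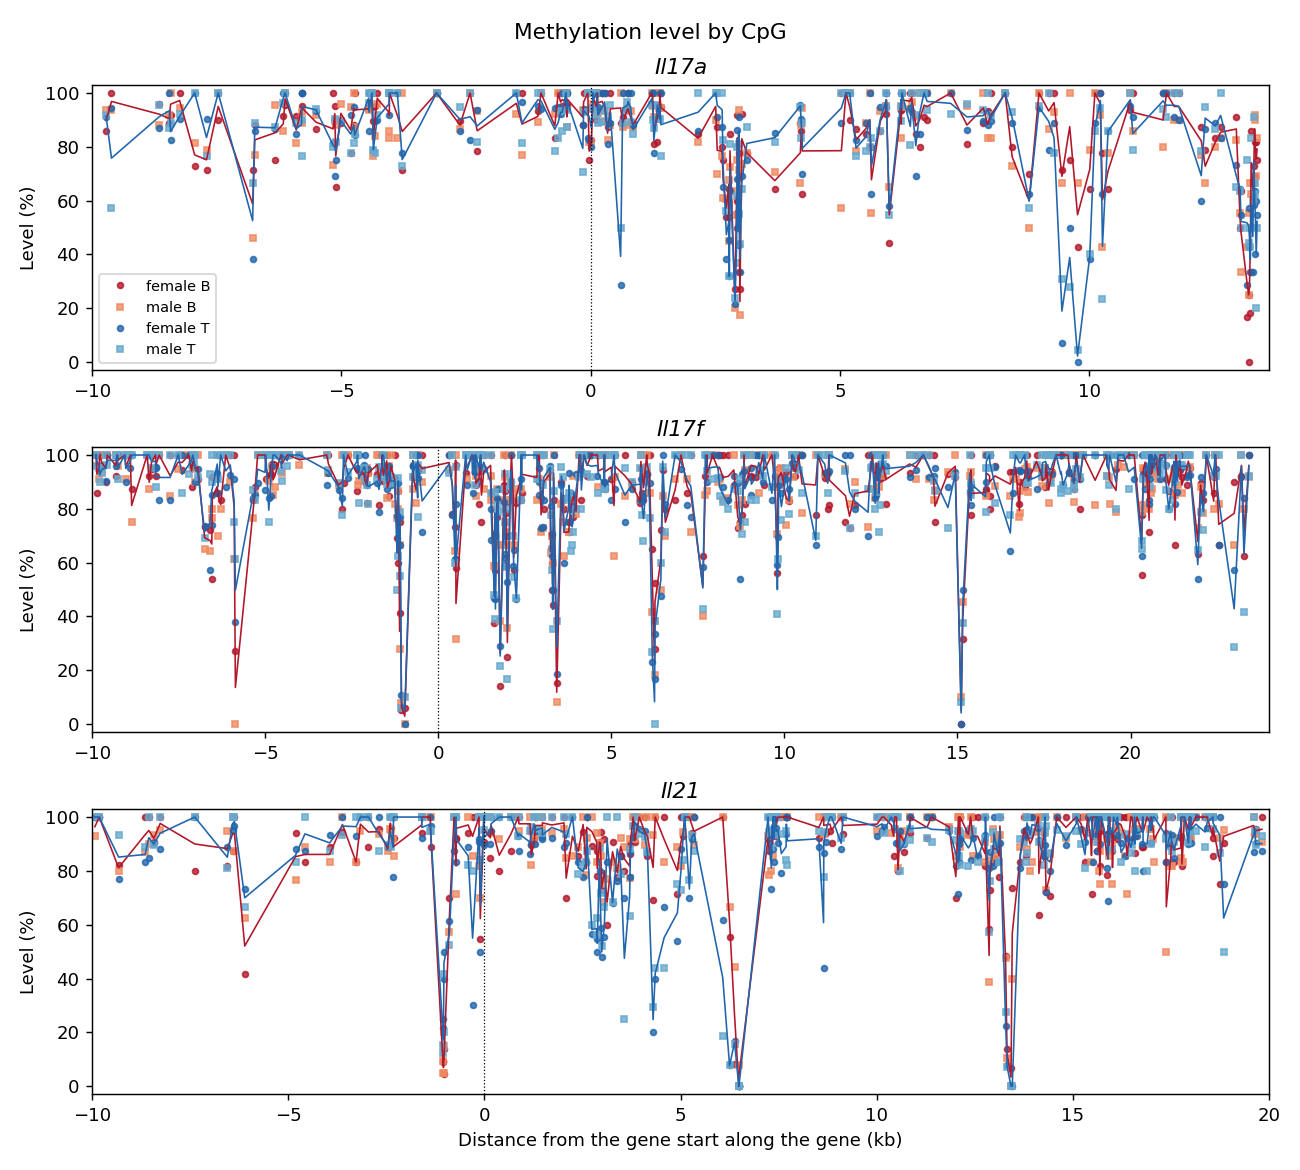
Methylation level in percent of each CpG (vertical axis) against its distance from the gene start in kb (horizontal axis, dotted line at the start) for Il17a, Il17f and Il21. Points are the 4 files and lines join the mean of both files of a cell type; both lines run together along Il17f, where no window was called, and the T line is lower in parts of Il21, over whose introns the T files had 69.9% and 69.7% against 85.3% in the B files.

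Tnf, Lta and Ltb had low levels over their starts in both cell types. The 50 CpGs of a stretch of 1899 bases, from -220 to 1677 around the Tnf start, had 2.80% and 2.93% in the female and male B files. In the female and male T files they had 0.10% and 0%. The rest of the Tnf gene was methylated: the CpG at 2622 bases had 92% to 100% in the 4 files. All Tnf exons together had 32.7% to 37.3%. At Lta, 30 CpGs over 1040 bases around the start had 1.15% to 1.55%. At Ltb, 26 CpGs from -538 to 719 bases had 8.99% and 6.44% in the female and male B files. The female and male T files had 2.06% and 2.05% there. Every CpG of the 250 bases before the RefSeq starts of Tnf and Ltb that was measured had 0% in all 4 files.

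Upstream of Ltb, B cells were lower. The intergenic window at chr17:35192001-35193000, -2438 to -1439 bases from the Ltb start, had 56.2% and 58.9% in the female and male B files and 91.2% and 87.8% in the female and male T files (difference -32.0 points, adjusted p 1.05e-10). Its 4 CpGs from -2134 to -2068, in capitals above, had 5.88% and 0% in the B files and 77.8% and 78.1% in the T files. Each had 7 to 10 reads in the female B file. Whether this stretch lies in a repeat was not tested. Where 10 or more reads were required in all 4 files, the window differed by -13.3 points with an adjusted p of 0.106, and the call was lost. The next window towards Ltb, at chr17:35193001-35194000, differed by -19.8 points.

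Upstream of Lta, the intergenic window at chr17:35213001-35214000, -8649 to -7650 bases from the start, was also lower in B cells. It had 65.5% and 51.9% in the female and male B files and 89.6% and 98.0% in the female and male T files, a difference of -35.1 points with an adjusted p of 1.97e-10. Its separated CpGs, at -7857 and -7939, had 9 reads each in the female B file. The limma fit on log2 ratios did not call this window. At the end of the Ltb gene and just behind it the direction was opposite. The window at chr17:35196001-35197000 had 11.5% and 9.14% in the female and male B files and 2.20% and 1.83% in the female and male T files, a difference of 8.28 points that passed the test (adjusted p 6.39e-11) but not the size threshold. Its 35 CpGs were uneven. The 5 neighbouring CpGs from 2007 to 2148 bases past the start, behind the gene, were all separated, with 33.3% to 88.9% in the B files and 0% to 20% in the T files. Most CpGs of the window inside the gene were at 0% in all 4 files. Within the gene, in the window before, the CpG at 834 bases had 61.5% and 68.8% in the female and male B files and 28.6% and 22.7% in the female and male T files.

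**Figure D5:**
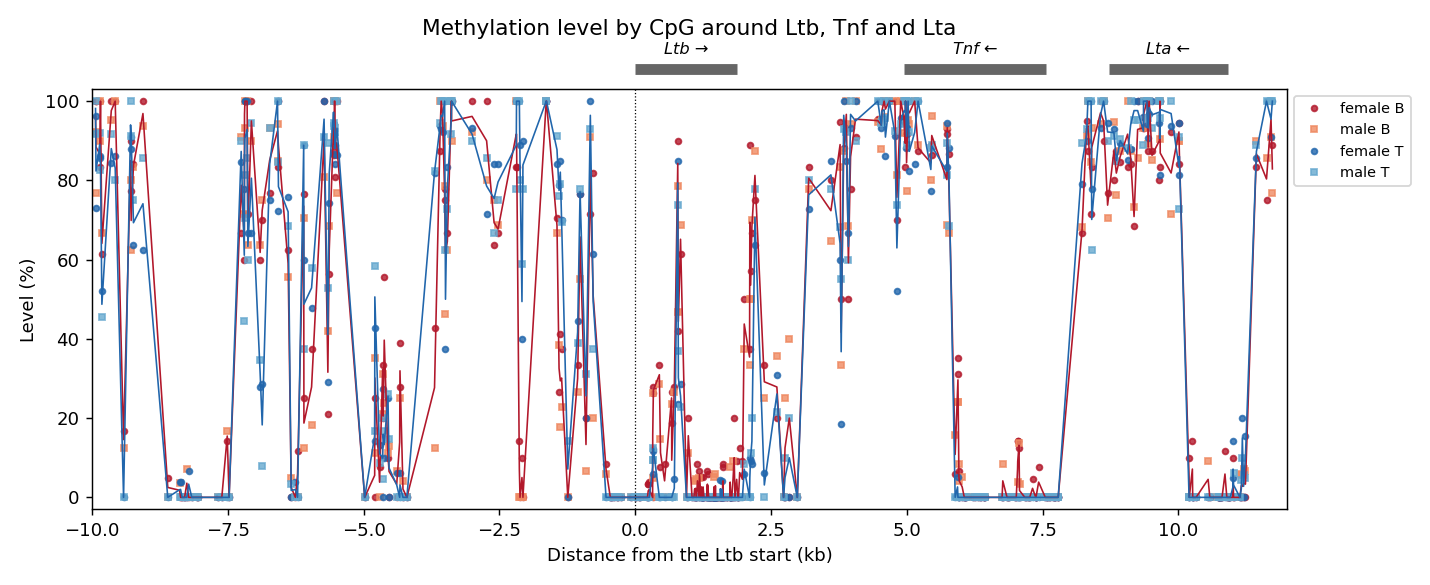
Methylation level in percent of each CpG (vertical axis) against the distance from the Ltb start in kb (horizontal axis) over Ltb, Tnf and Lta, drawn as grey bars with arrows for their strand. Points are the 4 files and lines join the mean of both files of a cell type; the gene starts are near 0 in all files, and B cells drop about 2 kb upstream of Ltb, where the window had 56.2% and 58.9% against 91.2% and 87.8%.

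Over single CpGs, 57 of the 1772 in the loci (3.22%) had both B values above both T values by 20 points or more, against 1.31% of all CpGs, and 30 (1.69%) had both T values above both B values by as much, against 1.13% of all. Of these 87 CpGs, 36 lay in called windows. By locus, the share with higher B values ran from 0.28% in Il17f to 5.15% in Il10. Il2, Il17a and Il17f had no CpG with higher T values. Runs of 3 or more neighbouring CpGs under 50% in both files of a cell type numbered 21 in B cells and 22 in T cells, each counted once, and 13 and 10 of them lay in the locus of Tnf, Lta and Ltb. Runs without an overlapping run in the other cell type numbered 4 in T cells (in Ifng, Il2, Il17f and Il10) and 3 in B cells (1 in Il10 and 2 in the locus of Tnf, Lta and Ltb, both upstream of Ltb). The cut-off of 50% mattered for some. The female and male B files had 28.9% and 39.2% in the Il2 run and 49.2% and 33.3% in the Il17f run. In the Il10 run low in B cells, the female and male T files had 48.5% and 56.4%. The rest were above 50% in both files of the other cell type. Runs were not counted over the genome.

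No member window was called between the sexes in the same model, against 0.00103% of all autosomal windows, and limma on log2 ratios also called none. In the model, 14 of the 182 passed an unadjusted p under 0.05. The share of all windows that did so is not given here. The largest difference between females and males, averaged over both cell types, was 13.7 points.

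Receptors, regulators and other cytokines were compared at the promoter in the same way. Of 13 receptor genes, 2 were called, against 0.915% of all promoters, and both were less methylated in T cells. Il2ra, the alpha chain of the interleukin 2 receptor, had 28.4% and 41.0% in the female and male B files and 15.9% and 12.2% in the female and male T files (adjusted p 0.0458). Il2rb, its beta chain, had 74.8% and 75.0% in the B files and 47.9% and 56.5% in the female and male T files (adjusted p 0.00323). None of 22 regulators of these cytokines was called at the promoter, although Runx3, a transcription factor of T cells, differed by 17.7 points with an adjusted p of 0.00511. Over loci, of which 0.513% were called in all, 1 regulator was called, 1 other cytokine and no receptor. The locus of Ikzf1, which encodes Ikaros, had a mean of 60.04% in the B files and 46.2% in the T files (adjusted p 0.0355).

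Of 18 other cytokines, 4 were called at the promoter, against the same 0.915% of all promoters. Fasl, the Fas ligand, had 81.9% and 87.5% in the female and male B files and 22.3% and 21.9% in the female and male T files (adjusted p 8.03e-06). Cd40lg, the CD40 ligand, which is on X, had 88.1% and 86.9% in the B files and 47.5% and 4.05% in the female and male T files (adjusted p 0.0062). Il12a and Ebi3, which encode the subunits of interleukin 35, were lower in B cells: Il12a had 23.5% and 22.3% in the B files and 46.8% and 44.6% in the T files (adjusted p 0.000469), and Ebi3 had 38.5% and 37.6% in the B files and 61.7% and 58.2% in the T files (adjusted p 0.0379). Il12a was also the cytokine called over its locus, with 54.0% and 52.5% in the female and male B files and 69.0% and 68.7% in the female and male T files (adjusted p 0.0468). The promoters of Il4, Il5 and Il13, cytokines of T helper 2 cells, had 85.2% to 94.5% in every file. The median difference was 0.96 points over the receptors, 0.39 over the regulators and 1.67 over the other cytokines, against 0.15 over all promoters.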

How the data were processed

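Genomic DNA of sorted cells was sequenced after bisulfite conversion. Submitters' processing notes name Trim Galore, FastQC, Bismark 0.13.1 and the build mm10 (GRCm38). Each file deposited by the authors gives, per CpG, the methylation level as a fraction and a count of covering reads. Per the deposited values, strands were merged and every entry had 5 or more reads; filters and duplicate removal are not given in the sources used here. Lightly covered CpGs are therefore under-represented. Poorly mapped repeats may be as well, which was not measured. Deposited positions were 0-based and were raised by 1; all CpGs used on chromosomes 1, 3, 10 and 17 then lay on CG of the genome.

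Methylated reads were the fraction times the coverage, rounded. There were 4 files, 1 per group, for 8 samples, and it is not stated whether a file holds both samples of its group or 1 of them. With 2 files against 2 an exact permutation test cannot go below p = 0.333 (two-sided). Windows, promoters and loci with 3 or more CpGs were fitted by a quasi-binomial model on cell type and sex (1 residual degree of freedom). Dispersions were squeezed with limma 3.58.1 (R 4.3.3, Python 3.11.15), with the prior from features with 5 or more expected reads of each kind, and F tests were adjusted by Benjamini-Hochberg over all features of a kind. For windows the prior degrees of freedom were infinite, so that each window was given the dispersion of 1.31. P-values therefore measure an average spread between files, and very small values overstate the certainty for a single window. Levels are methylated over all reads, and differences are the mean over both sexes. A read that covers several CpGs counts once for each. Wilson intervals and Fisher's exact test take these counts as independent, so both can overstate the certainty. Scripts were tested on simulated data. Alternatives were other sizes, read minimums, thresholds and dispersion priors, limma on log2 ratios with a pseudocount of 1, Fisher's exact test in each sex, no sex term and leaving out each file.

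All 9 members are named, with every called window in their loci and, for a member without one, its window of largest difference; the sets of receptors, regulators, other cytokines and markers are given by counts, and by name where called at the promoter. Cd28, Cr2, Runx3, Ikzf1, the Il12a locus, Il4, Il5, Il13, neighbouring windows and single CpGs were named after their values were seen. The members, lists and tests were chosen with earlier results of these data known.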

Additional observations from a re-analysis of the deposited data

Results flagged for a closer look

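For 6 small differences the B minus T sign was opposite in females and males. In none did the test of the difference between the sexes, the residual of the additive model against the prior dispersion, pass (adjusted p 1 for the promoters and 0.999861 for the loci). At promoters, the female minus the male difference was 6.40 points for Il17f (3.40 in females and -3.002 in males), 6.75 for Il21 (6.43 and -0.32) and -3.77 for Tnf (-2.21 and 1.55). Over loci it was -2.46 points for Il2 (-0.61 and 1.85), 0.46 for Il17f (0.30 and -0.16) and -1.97 for Il10 (-1.84 and 0.13). With 1 file per group there is no group in which a sample could stand apart from the others.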

How the results depend on the processing

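No analysis paired by sample was possible because the groups share no replicate number and each has 1 file. B and T files were compared within sex, through the sex term of the model and by Fisher's exact test in each sex. The count of called member windows, 11, was 17 with windows of 500 bp (6.34%, against 2.74% of all), 4 with 2 kb (3.88%, against 1.40%), 20 and 6 at thresholds of 10 and 30 points (10.99% and 3.30%, against 4.19% and 1.04%), 3 with limma on log2 ratios and 0 with the dispersion prior from all windows, a setting that called 0 windows in the whole genome. Leaving out 1 file gave 10 to 12, and the other alternatives gave 8 to 12. The count of called member promoters, 1, was 2 with 500 bp to either side of the start (Ifng and Il10) and 0 at a threshold of 30 points. The shares of all promoters called at these settings are not given here, so the counts are not read as an excess. No member promoter was called with 1 file left out. Called loci numbered 0 under all 13 alternatives, although the size of locus differences changed. Over all alternatives it ranged from 2.12 to 6.29 points in Il21, 1.60 to 4.80 in Ifng and 0.05 to 3.12 in Ltb. Windows called between the sexes numbered 0 under all 6. Separated CpGs, 87, numbered 184 with a gap of 10 points (10.4%, against 6.48% of all CpGs) and 30 with a gap of 40 (1.69%, against 0.954%).

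Signs turned only at small differences that were never called. The Tnf promoter was at 0.40 points with 500 bp to either side and 2.09 with 10 or more reads, and the Lta promoter at -0.37 with 500 bp. Without 1 file, promoters ranged from -1.90 to 2.29 points in Il17f, -0.50 to 6.62 in Il21 and -1.56 to 0.90 in Tnf, and loci from -0.16 to 1.41 in Il2, -0.0934 to 0.231 in Il17f, -1.83 to 0.12 in Il10 and -0.0164 to 1.12 in Lta. The Lta locus was at -0.25 points with 5 kb flanks, and with 20 kb flanks the loci of Il2, Il17f, Tnf and Lta were at -2.70, -0.30, -1.58 and -2.37. With 10 or more reads the Il17f locus was at -0.25. No called window changed sign in any alternative run, and the cause of lost calls was not tested. Single CpGs rested on a mean of 14.6 to 17.7 reads per file, and with 10 or more reads required in all 4 files 63 were separated (5.09%, against 2.49%).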
